A study of Mus musculus with 17 samples.

Results

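The genes described here are 10 transcription factor genes outside the Hox clusters that help to set the position of a tissue in the body, namely Tbx15, Tbx5, Tbx18, Shox2, En1, Irx1, Irx3, Irx5, Nr2f1 and Sim1. They were taken by symbol from a table of 54658 genes, in which all 10 were found. The members were chosen by their measured levels (CPM) across the group codes, so their levels between fat depots and implants are given as a description, with no test. The 16 mouse libraries fall into 8 codes of 2 libraries. Implants grown from mouse embryonic fibroblasts (MEF) of leptin knockout (KO) pups have the codes MKM and MKF, and those grown from cells of wildtype (WT) pups the codes MWM and MWF, where the last letter stands for groups described as male and female. The cells were injected under the skin over the sternum of hosts of a type named LD at 3 to 5 weeks of age and grew into tissue resembling fat. Endogenous visceral fat has the codes EVM (surgery), EVFN (no surgery) and EVFY, a code that the series text does not spell out and that the genotype field gives as visceral, and endogenous subcutaneous fat the code ESM (male, surgery). Surgery destabilized the medial meniscus of the left knee at 16 weeks, and the tissues date from 28 weeks. The series text also calls the hosts male. It says that the KO pups were homozygous for the leptin knockout, and the sources used here give neither the body site of each endogenous depot nor the number of animals per library, and they do not say which mice the endogenous fat was taken from.

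T-box genes (Tbx15, Tbx5, Tbx18) and homeobox genes (Shox2, En1 and the Iroquois genes Irx1, Irx3 and Irx5) encode DNA-binding proteins that are switched on in particular regions of the embryo, and fat precursor cells keep part of that regional pattern in the adult. In mice and humans TBX15 is known as a gene of subcutaneous rather than visceral fat, and mouse Shox2 and En1 are known from the limbs, with En1 also marking a lineage of skin fibroblasts. Nr2f1 encodes an orphan nuclear receptor of neural crest and brain, and Sim1 a basic helix-loop-helix factor of hypothalamic neurons and of embryonic muscle precursors.

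Of the 10 genes, 6 have an entry in the RefSeq promoter table for build GRCm38.p6. Those of Shox2 (chr3:66981722-66982021, minus strand) and En1 (chr1:120602237-120602536, plus strand) are shown because these genes had the most similar profiles of all pairs of members. Each runs 5′ to 3′ over 300 bases, with 4 motifs in capitals, each searched on both strands. They are the homeodomain core TAAT, the TATA box as TATAAA, the CCAAT box and the E-box CACGTG.
Shox2: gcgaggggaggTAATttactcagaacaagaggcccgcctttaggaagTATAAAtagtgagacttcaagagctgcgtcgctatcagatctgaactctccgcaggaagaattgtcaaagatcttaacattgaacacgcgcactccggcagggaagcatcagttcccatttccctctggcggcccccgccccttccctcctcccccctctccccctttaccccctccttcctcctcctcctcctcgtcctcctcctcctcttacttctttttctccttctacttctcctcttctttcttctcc
En1: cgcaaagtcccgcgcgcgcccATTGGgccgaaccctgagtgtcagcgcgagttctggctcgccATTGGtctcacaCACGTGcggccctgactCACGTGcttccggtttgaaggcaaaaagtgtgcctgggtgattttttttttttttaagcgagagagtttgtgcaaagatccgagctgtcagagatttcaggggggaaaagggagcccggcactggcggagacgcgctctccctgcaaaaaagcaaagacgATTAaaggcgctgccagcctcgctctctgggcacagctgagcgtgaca
The Shox2 promoter held 1 TAAT and 1 TATAAA, with no CCAAT and no CACGTG. The En1 promoter held 1 TAAT, 2 CCAAT and 2 CACGTG, with no TATAAA, so TAAT was the only one of the 4 motifs that both promoters held. Over all 32851 promoters in the table, 58.0% held TAAT, 13.6% TATAAA, 37.4% CCAAT and 7.15% CACGTG. The CpG count was 11 for Shox2 and 23 for En1, against a median of 7 over all promoters.

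The libraries held 16444965 to 25805502 reads, so 1 read was worth 0.039 to 0.061 CPM, the deposited unit, in which each library sums to 1000000. The labels name the tissue as ganglia, while the sum of 8 adipocyte markers was 9919 to 22730 CPM in the implants and 17790 to 34100 CPM in endogenous fat, and the sum of 11 sensory neuron markers was 13.9 to 77.2 CPM in the implants and 7.34 to 17.5 CPM in endogenous fat. A pair of libraries stood apart from their labels. Over all tested genes, the library labelled MKM1 correlated at r = 0.891 with MKM2 and at 0.989 with EVFY1, and the library labelled EVFN1 at 0.906 with EVFN2 and at 0.984 with MKF1. Mesothelial markers (7 genes), which belong to the lining of visceral fat, summed to 488 CPM in the first of these and to 2.55 CPM in the second. They summed to 1.98 to 39.8 CPM in the other implants, 191 to 516 CPM in the other visceral libraries and 4.67 to 9.98 CPM in subcutaneous fat. Both libraries are therefore given singly and are left out of all group values, which leaves 7 implants (3 KO and 4 WT), 5 visceral and 2 subcutaneous libraries. Liver markers (8 genes) summed to 87.1 to 11260 CPM in these implants and 95.7 to 226.5 CPM in endogenous fat. Lung markers (6 genes) summed to 9.44 to 525 CPM in the implants and 0.0548 to 0.397 CPM in endogenous fat. Their part in the differences between implants and endogenous fat was not tested.

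In 6 genes (Tbx15, Tbx5, Shox2, En1, Irx1 and Irx5) every visceral library lay below every implant and every subcutaneous library. Among the 17964 genes tested, 0.623% had this pattern, but the members were chosen with these levels known, so nothing is read from that difference. With the libraries labelled MKM1 and EVFN1 kept in their groups, 0 of the 10 genes had it. The sum of the mesothelial markers ran the other way over the 14 libraries, with r = -0.90 to En1, -0.86 to Shox2 and -0.84 to Tbx15. Kidney markers (5 genes) did likewise, with r = -0.91 to Shox2, -0.89 to En1 and -0.81 to Tbx15. Their sum was 0.0429 to 4.07 CPM in the implants and 0 in both subcutaneous libraries. In visceral fat it was 141.8 CPM in EVM1 and 7.71 to 18.04 CPM in the others, with Slc12a1 and Kap at 0 in all 5 libraries. In the library labelled MKM1 it was 18.18 CPM, all from Lrp2, with Umod, Slc34a1, Slc12a1 and Kap at 0. The sum is therefore not read as an amount of kidney tissue. The part of the cells behind either marker list in the visceral low was not tested. The other genes were of 2 kinds. Tbx18, Irx3 and Nr2f1 had visceral ranges that overlapped those of the implants, and Sim1 was low throughout and uneven within groups. In bulk tissue, fewer cells of a type and less RNA per cell cannot be told apart.

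**Figure D1:**
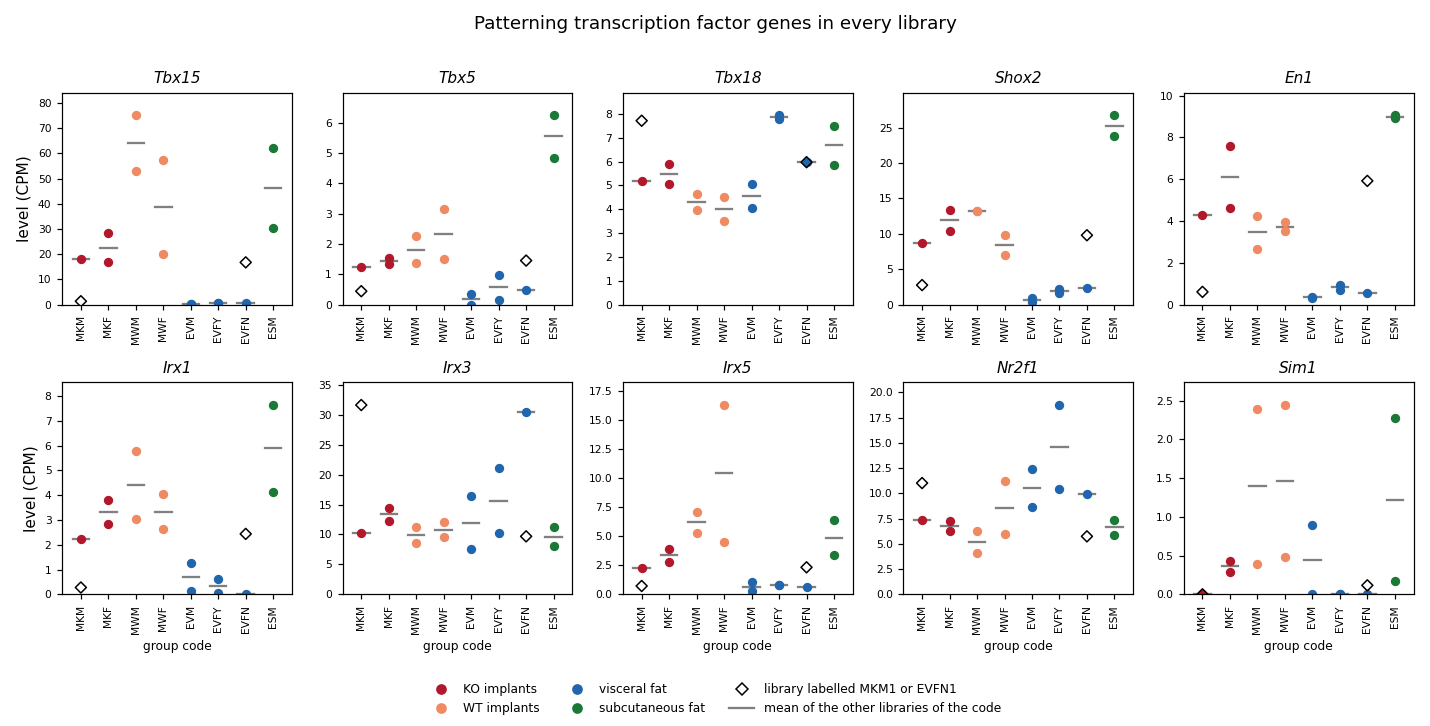
Level in CPM (y axis, from 0) of each of the 10 genes in every library, by group code (x axis), with points for libraries, grey lines for the mean of a code without the libraries labelled MKM1 and EVFN1, and open diamonds for these. Tbx15 lies between 17.0 and 75.2 CPM in the implants and at no more than 0.654 CPM in visceral fat, while Irx3 reaches 30.4 CPM in visceral fat.

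Tbx15 (chromosome 3, 99240381 to 99354259, plus strand, mm10) differed most of the members between the depots. It was at 18.1 (MKM2), 17.0 (MKF1) and 28.3 CPM (MKF2) in KO implants and at 53.1 (MWM1), 75.2 (MWM2), 57.3 (MWF1) and 20.25 CPM (MWF2) in WT implants. It was at 0.112 (EVM1), 0.310 (EVM2), 0.553 (EVFY1), 0.439 (EVFY2) and 0.654 CPM (EVFN2) in visceral fat, and at 30.2 and 62.1 CPM in ESM1 and ESM2. Implants and subcutaneous fat overlapped, and visceral fat lay apart from both. The mean was 0.413 ± 0.212 CPM in visceral fat (SD, n = 5) and 46.2 ± 22.6 CPM in subcutaneous fat (n = 2), 112 times lower in visceral fat, and 38.5 ± 23.2 CPM in the implants (n = 7), 93.0 times the visceral mean. On the log2(CPM + 0.5) scale, visceral minus subcutaneous was -5.56 (SE 0.43) and implants minus visceral 5.06 (SE 0.31), against -4.91 and 3.99 with all 16 libraries as labelled. Of the set-apart libraries, the one labelled MKM1 (1.32 CPM) was nearer to visceral fat and the one labelled EVFN1 (16.8 CPM) nearer to the implants. Averaged over the group codes, the order of levels was MWM, ESM, MWF, MKF, MKM, EVFN, EVFY and EVM, and neighbours among the first 5 overlapped, where MKM and EVFN are 1 library each.

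Tbx5 (chromosome 5, 119832668 to 119885219, plus strand), a T-box gene of forelimb and heart, was highest in subcutaneous fat. It was at 1.22 to 1.55 CPM in KO implants (median 1.33), 1.36 to 3.16 CPM in WT implants (median 1.87), 0 to 0.987 CPM in visceral fat (median 0.335), and 6.24 and 4.84 CPM in ESM1 and ESM2. The 0 was EVM2, where the depth allows up to 0.116 CPM. The 3 tissues did not overlap: implants lay above visceral fat and below subcutaneous fat. Visceral minus subcutaneous was -2.81 (SE 0.41) on the log2 scale, implants minus visceral 1.32 (SE 0.29) and implants minus subcutaneous -1.50 (SE 0.39). With a pseudocount of 2 these were -1.65 for the first and 0.61 for the second, and with edgeR -4.05 and 2.20. Tbx5 was at 0.441 CPM in MKM1 and 1.45 CPM in EVFN1, going by their labels.

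The homeobox genes Shox2 (chromosome 3, 66971727 to 66981771, minus strand) and En1 (chromosome 1, 120602418 to 120607992, plus strand) shared that 3-step order. Shox2 was at 8.76 (MKM2), 10.3 (MKF1) and 13.4 CPM (MKF2) in KO implants and at 13.3 (MWM1), 13.3 (MWM2), 7.07 (MWF1) and 9.85 CPM (MWF2) in WT implants. It was at 0.391 (EVM1), 0.891 (EVM2), 2.21 (EVFY1), 1.59 (EVFY2) and 2.38 CPM (EVFN2) in visceral fat, and at 26.8 and 23.8 CPM in ESM1 and ESM2. The Shox2 means were 1.49 ± 0.849 CPM in visceral fat and 25.3 ± 2.10 CPM in subcutaneous fat, a log2 difference of -3.71 (SE 0.24), and the implants, at 10.9 ± 2.53 CPM, lay between them. En1 was at 4.28 to 7.60 CPM in KO implants and 2.68 to 4.235 CPM in WT implants, against 0.335 to 0.932 CPM in visceral fat and 8.91 and 9.06 CPM in ESM1 and ESM2. The log2 difference in En1 was -3.18 (SE 0.25) for visceral minus subcutaneous fat, 2.18 (SE 0.18) for implants minus visceral fat and -1.0 (SE 0.24) for implants minus subcutaneous fat. The libraries labelled MKM1 and EVFN1 were at 2.76 and 9.80 CPM for Shox2 and at 0.606 and 5.92 CPM for En1. So Shox2, En1 and Tbx5 were the 3 members whose implants all lay below both subcutaneous libraries, a pattern of 5.62% of the tested genes. All 3 were also lowest in visceral fat, and 0.0668% of the tested genes had both patterns. The members were chosen with these levels known, so nothing is read from either share.

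Irx1 (chromosome 13, 71957921 to 71963723, minus strand) and Irx5 (chromosome 8, 92357625 to 92376286, plus strand), Iroquois homeobox genes of limb, lung and heart development, were low in visceral fat but not graded between implants and subcutaneous fat. Irx1 was at 2.24 (MKM2), 2.85 (MKF1) and 3.82 CPM (MKF2) in KO implants and at 2.615 to 5.76 CPM in WT implants, against 0 to 1.28 CPM in visceral fat and 4.14 and 7.63 CPM in ESM1 and ESM2. The 0 was EVFN2, which allows up to 0.178 CPM, and the 1.28 CPM was EVM1. Irx5 was at 2.29 (MKM2), 2.80 (MKF1) and 3.91 CPM (MKF2) in KO implants and at 7.095 (MWM1), 5.25 (MWM2), 16.3 (MWF1) and 4.50 CPM (MWF2) in WT implants. In endogenous fat, Irx5 was at 0.271 to 1.06 CPM in the visceral libraries and at 3.35 and 6.38 CPM in ESM1 and ESM2, so visceral fat stood apart and the other tissues overlapped. On the log2 scale, visceral minus subcutaneous was -3.05 (SE 0.49) for Irx1 and -2.15 (SE 0.49) for Irx5, and implants minus visceral 2.31 (SE 0.36) and 2.12 (SE 0.35). The size of such differences in genes near 0 depends on the pseudocount, while their direction held. For Irx1, visceral minus subcutaneous was -4.46 with a pseudocount of 0.1, -1.74 with one of 2 and -5.81 with edgeR on the recovered reads, and implants minus visceral was 4.84 with edgeR. For Irx5, visceral minus subcutaneous was -1.33 with a pseudocount of 2 and -2.91 with edgeR. As single libraries, MKM1 by its label had 0.276 CPM of Irx1 and 0.716 CPM of Irx5, and EVFN1 by its label 2.44 and 2.32 CPM.

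Irx3 (chromosome 8, 91798525 to 91802067, minus strand) lies in the same cluster as Irx5 and is known for its long-range contact with the obesity-associated Fto locus. It did not share the visceral low. Irx3 was at 10.3 to 14.4 CPM in KO implants, 8.50 to 12.0 CPM in WT implants, 7.63 (EVM2) to 30.4 CPM (EVFN2) in visceral fat (median 16.4) and 11.3 and 8.03 CPM in ESM1 and ESM2, with overlap between all of these. MKM1, as labelled, was above all 15 others at 31.6 CPM, and EVFN1 was at 9.69 CPM. Nr2f1 (chromosome 13, 78188973 to 78199757, minus strand) was at 6.31 to 7.33 CPM in KO implants, 4.07 to 11.2 CPM in WT implants, 8.65 to 18.8 CPM in visceral fat and 7.37 and 5.92 CPM in ESM1 and ESM2. Every visceral library lay above both subcutaneous ones for Nr2f1, and among the implants only MWF2 reached into the visceral range. The share of all genes with such a gap between the depots was not counted, so nothing is read from it. Nr2f1 had 11.02 CPM in MKM1 and 5.74 CPM in EVFN1. The log2 difference of visceral minus subcutaneous fat was 0.82 (SE 0.35) for Irx3 and 0.73 (SE 0.32) for Nr2f1.

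Tbx18 (chromosome 9, 87702800 to 87731260, minus strand), known from mural cells and the epicardium, was the most even member. Its code means ran from 4.003 CPM (MWF) to 7.86 CPM (EVFY), a 1.97-fold range, against a 304-fold range for Tbx15. It was at 5.07 to 5.88 CPM in KO implants, 3.51 to 4.65 CPM in WT implants, 4.07 to 7.94 CPM in visceral fat and 7.49 and 5.87 CPM in ESM1 and ESM2. Visceral minus subcutaneous was -0.13 (SE 0.19) on the log2 scale. The libraries set apart had 7.71 CPM (MKM1) and 5.97 CPM (EVFN1) of Tbx18. The sum of 5 pericyte and smooth muscle markers was 609 to 1825 CPM in the implants, 719 to 8107 CPM in visceral fat and 766 to 1210 CPM in subcutaneous fat. Its part in the level of Tbx18 was not tested.

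Sim1 (chromosome 10, 50894754 to 50989152, plus strand) was low and uneven. It was at 0 (MKM2), 0.290 (MKF1) and 0.429 CPM (MKF2) in KO implants and at 2.40 (MWM1), 0.395 (MWM2), 2.44 (MWF1) and 0.487 CPM (MWF2) in WT implants. In visceral fat it was at 0.893 CPM in EVM1, with 16 reads, and at 0 in the other 4 libraries, where the depth allows up to 0.116 to 0.178 CPM, and it was at 0.170 and 2.28 CPM in ESM1 and ESM2. MWM, MWF and ESM each thus held 1 high and 1 low library. ESM1 and ESM2 also differed in the sum of 8 skeletal muscle markers, at 138.3 and 16570 CPM. The sum of 6 keratinocyte markers was 2.55 CPM in ESM1 and 101 CPM in ESM2. ESM2 was the higher of the 2 for Sim1, Tbx15, Irx1, Irx5 and, by little, En1, and the lower for the other members. The subcutaneous means hold this difference, and its part in them was not tested. Sim1 passed the filter on low values (at least 1 CPM in at least 2 libraries) only through MWM1, MWF1 and ESM2. It had 0 reads in MKM1 and 2 reads, 0.116 CPM, in EVFN1.

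Levels can be compared between genes only per length of transcript. Per kilobase of exon, the mean level of Tbx15 was the highest of the members in the implants, at 10.3 CPM per kilobase, and in subcutaneous fat, at 12.3, but was 0.1103 in visceral fat. There Irx3 was the highest, at 6.21 CPM per kilobase, followed by Nr2f1 at 2.37. Sim1 was the lowest in every tissue, at no more than 0.166 CPM per kilobase, which was its level in WT implants.

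**Figure D2:**
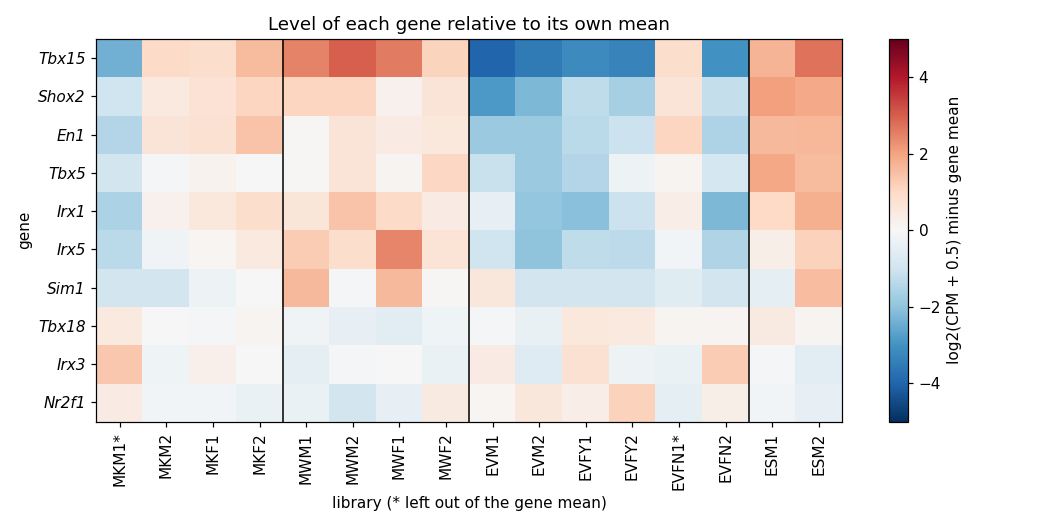
Log2(CPM + 0.5) of each gene (rows) in each library (columns), after subtracting the gene's mean over 14 libraries, with red above and blue below that mean. Tbx15, Tbx5, Shox2, En1, Irx1 and Irx5 are blue or pale in the visceral libraries and blue in the library labelled MKM1, and the library labelled EVFN1 has the colours of the implants.

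The members were chosen from their levels in the same group codes, so the p-values below are not independent of that choice. They are given only beside the share of all genes called, and nothing about the members is supported by them. KO implants were first compared with WT implants, which asks what the leptin genotype of the implanted cells goes with. With limma and Benjamini-Hochberg adjustment over all genes tested, 0 of 10 members passed an adjusted p of 0.05, where 10.8% of all genes passed. Of the members, 2 had an unadjusted p under 0.05, and edgeR on the recovered reads called 0. Tbx15 averaged 21.1 ± 6.27 CPM in KO implants (SD, n = 3) and 51.5 ± 22.9 CPM in WT implants (n = 4), a log2 difference of -1.20 (SE 0.40, limma adjusted p = 0.0908). Irx5 averaged 3.00 ± 0.826 CPM in KO implants and 8.28 ± 5.43 CPM in WT implants, a log2 difference of -1.25 (SE 0.45, limma adjusted p = 0.113). For Irx5 every KO library lay below every WT library, while for Tbx15 the KO library MKF2 lay above the WT library MWF2. The share of all genes with KO and WT implants apart was not counted, so nothing is read from the gap in Irx5. Without MWF2 both passed, with -1.57 for Tbx15 (limma adjusted p = 0.0296) and -1.69 for Irx5 (adjusted p = 0.0289), so this 1 library decided the calls. With the library labelled MKM1 kept among the KO implants and EVFN1 among visceral fat, the differences were -2.04 (adjusted p = 0.200) and -1.55 (adjusted p = 0.09998).

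Among the other members, Sim1 was at 0.240 ± 0.219 CPM in KO implants and 1.43 ± 1.14 CPM in WT implants, a log2 difference of -1.34. It entered the comparison only through high WT and subcutaneous libraries, so this value is a description, with no test. En1 was at 5.50 ± 1.82 CPM in KO implants and 3.59 ± 0.680 CPM in WT implants, with a log2 difference of 0.46 (SE 0.24, limma adjusted p = 0.247), which was -0.07 with all 16 libraries as labelled. All 3 KO libraries lay above all 4 WT libraries for En1 and for Tbx18, whose log2 difference was 0.33 (SE 0.18, limma adjusted p = 0.261). For En1 the lowest KO library was at 4.28 CPM and the highest WT library at 4.235 CPM. The share of all genes with such a gap was not counted and the members were chosen with their levels known, so nothing is read from it. The median log2 difference of the 10 members was -0.22, against -0.06 over all genes tested. Skeletal muscle markers (8 genes) moved with the same contrast: their sum was 75.8 (MKF1), 76.1 (MKM2) and 2365 CPM (MKF2) in KO implants and 2946 (MWF2), 13280 (MWM1), 14220 (MWM2) and 39830 CPM (MWF1) in WT implants. MWF1 thus had both the highest muscle sum and the highest Irx5. Over 14 libraries, which share group and tissue, the muscle sum correlated with Irx5 at r = 0.75, with Sim1 at 0.70 and with Tbx15 at 0.65. Lung markers (6 genes) summed to 9.44 to 28.6 CPM in KO implants and 131 to 525 CPM in WT implants. Other marker sums separated the 3 KO from the 4 WT libraries as well. Heart muscle markers (5 genes) summed to 5.65 to 14.3 CPM in KO implants and 38.5 to 178 CPM in WT implants, with r = 0.80 to Irx5 and 0.77 to Sim1 over the 14 libraries. Schwann cell markers (6 genes) summed to 99.05 to 129 CPM in KO implants and 182 to 259 CPM in WT implants, and sensory neuron markers to 13.9 to 39.9 CPM in KO implants and 58.1 to 77.2 CPM in WT implants. The sum of 8 progenitor and fibroblast markers ran the way of En1 and Tbx18, at 5073 to 7063 CPM in KO implants and 3254 to 4188 CPM in WT implants. Kidney markers summed to 0.0429 to 0.255 CPM in KO implants and 0.987 to 4.07 CPM in WT implants. The part of these tissues in the differences was not tested.

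**Figure D3:**
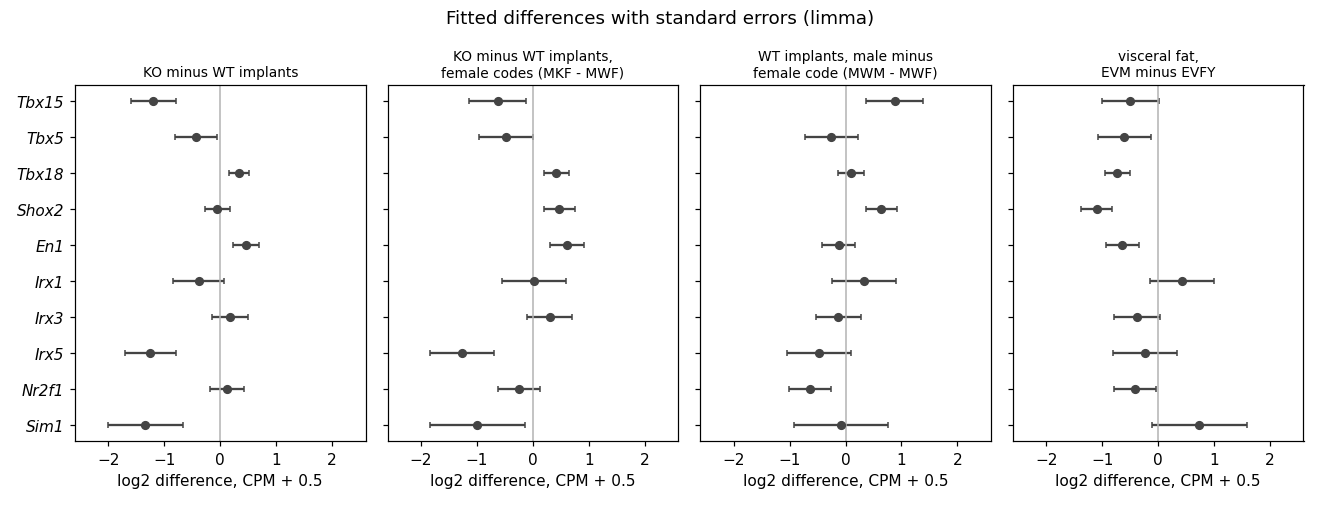
Log2 differences (x axis, log2(CPM + 0.5) scale) with bars of 1 SE for each of the 10 genes (y axis) in the 4 tested comparisons. Tbx15 at -1.20 and Irx5 at -1.25 lie lowest after Sim1 at -1.34 in KO minus WT implants, where Sim1 is a description only, and 0 of 10 genes passed in any of the 4.

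**Figure D4:**
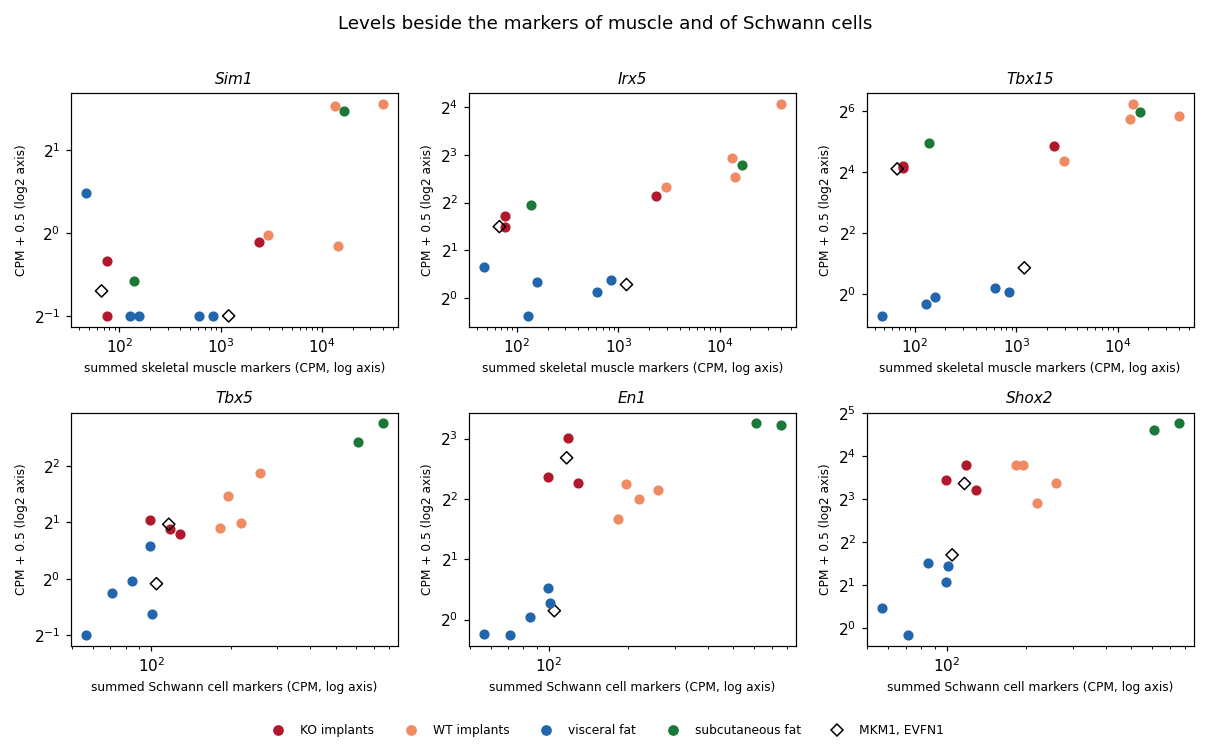
Level of Sim1, Irx5 and Tbx15 against the summed skeletal muscle markers, and of Tbx5, En1 and Shox2 against the summed Schwann cell markers, in every library (y axis CPM + 0.5, x axis CPM, both log), coloured by tissue, with open diamonds for the libraries labelled MKM1 and EVFN1. Irx5 and the muscle sum are both highest in MWF1, at 16.3 and 39830 CPM, and Tbx5 and the Schwann cell sum are both highest in ESM1, at 6.24 and 757 CPM.

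In the female codes alone, MKF minus MWF, 0 of 10 members passed with limma, where 16.4% of all genes passed, with 0 at an unadjusted p under 0.05 and 0 by edgeR. Irx5 had the largest difference, at -1.26 (SE 0.57, limma adjusted p = 0.160), and passed without MWF2 (-2.14, adjusted p = 0.0409). Tbx15 was at 17.0 and 28.3 CPM in MKF, against 57.3 and 20.25 CPM in MWF, a log2 difference of -0.63 (SE 0.51, adjusted p = 0.413). The male codes have 1 KO library left and were not compared separately. Within WT implants, MWM minus MWF, 0 of 10 members passed with limma, where 13.7% of all genes passed, with 1 at an unadjusted p under 0.05 and 0 by edgeR. That gene was Shox2, at 13.3 and 13.3 CPM in MWM, against 7.07 and 9.85 CPM in MWF, a log2 difference of 0.64 (SE 0.28, limma adjusted p = 0.171).

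Between the visceral codes, EVM minus EVFY, 0 of 10 members passed with limma, where 0.857% of all genes passed, with 2 at an unadjusted p under 0.05 and 0 by edgeR. Shox2 was at 0.391 and 0.891 CPM in EVM, against 2.21 and 1.59 CPM in EVFY, a log2 difference of -1.10 (SE 0.28, limma adjusted p = 0.121). Tbx18 was at 5.08 and 4.07 CPM in EVM, against 7.94 and 7.78 CPM in EVFY, a log2 difference of -0.73 (SE 0.22, adjusted p = 0.186). The codes did not overlap for these genes, nor for Tbx15 and En1. The share of all genes with no overlap between these codes was not counted, so nothing is read from it. The median over the 10 members was -0.46, against -0.04 over all genes tested. The sum of 7 mesothelial markers was 190.8 and 258.5 CPM in EVM, against 439.7 and 516 CPM in EVFY, with Wt1 at 20.2 and 36.4 CPM in EVM, against 83.9 and 118 CPM in EVFY. Their part in these differences was not tested.

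A wider list of 80 other patterning factors was counted beside the members, and 57 of them passed the filter. Between visceral and subcutaneous fat, 5 of the 57 were higher and 1 lower with limma, where 0.568% of all genes were higher and 0.629% lower (1.20% in either direction). Wt1 had a log2 difference of 6.43 (SE 0.31, limma adjusted p = 2.94e-05) and was at 20.2 to 118 CPM in visceral fat, against 0.170 and 0.114 CPM in subcutaneous fat. Gata6 differed by 1.47 (limma adjusted p = 0.000514), Tcf21 by 4.11 (limma adjusted p = 0.00449) and Bnc1 by 4.16. Among the 14 libraries Bnc1 reached 1 CPM only in visceral fat, with at most 0.669 CPM in the implants and 0.171 CPM in subcutaneous fat. It passed the filter through the group where it is high, so its values are a description, with no test, though it stays in the counts. Wt1 and Bnc1 are mesothelial factors and stand in the mesothelial marker list too, Gata6 marks large peritoneal macrophages and mesothelium, and Tcf21 marks visceral fat progenitors. These genes ran opposite to the 6 members that were low in visceral fat. With all 16 libraries as labelled, 0 of the 57 passed in either direction, and without ESM2, 3 were higher and 0 lower.

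Against visceral fat, the implants had 14 of the 57 higher, where 20.0% of all genes were higher, and 15 lower, where 9.15% were lower (29.2% in either direction). Gata6 was at 8.93 to 14.0 CPM in the implants and 38.0 to 86.5 CPM in visceral fat, a log2 difference of -2.23 (SE 0.08, limma adjusted p = 9.54e-06). The log2 difference was -4.81 for Wt1 (limma adjusted p = 1.85e-05) and -4.03 for Bnc1, the latter again a description only. Against subcutaneous fat, the implants had 12 higher, where 12.9% of all genes were higher, and 2 lower, where 3.57% were lower (16.5% in either direction). Zic1, a zinc finger gene of the neural tube and dorsal somites that is used as a marker of classical brown fat, was at 1.65 to 6.01 CPM in the implants, 0 to 0.151 CPM in visceral fat and 0.227 and 0.342 CPM in ESM1 and ESM2. Its log2 difference from subcutaneous fat was 2.40 (SE 0.30). Among the 14 libraries Zic1 reached 1 CPM only in implants, so this value is a description, with no test. The set-apart libraries were at 7.25 CPM (labelled EVFN1) and 0.165 CPM (labelled MKM1) for Zic1. Osr1, an odd-skipped gene of intermediate mesoderm, had a log2 difference of -1.24 (limma adjusted p = 0.00275). Barx1 had one of 1.52, likewise a description, as it was at most 0.1005 CPM in visceral fat and 0.057 CPM in subcutaneous fat. Zic1 and Barx1 stay in the counts. The counts moved with the subcutaneous libraries, to 3 higher and 2 lower without ESM1 and 5 higher and 3 lower without ESM2. With all 16 libraries as labelled, 1 was higher and 0 lower against visceral fat, and 2 higher and 0 lower against subcutaneous fat.

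In KO minus WT implants, 1 of the 57 was higher (6.67% of all genes) and 1 lower (4.10%). Six4, a homeobox gene of muscle precursors, differed by -1.34 (SE 0.32, limma adjusted p = 0.0337), while 0 of the 57 passed with all 16 libraries, with a replicate block, or without any 1 of MKF1, MKF2, MWM1, MWM2, EVFY1 and EVFY2. In the female codes 0 were higher (6.0% of all genes) and 4 lower (10.4%), among them Barx1 at -1.61, Wt1 at -2.09 (limma adjusted p = 0.00699) and Six4 at -2.0 (adjusted p = 0.0134). Among the 14 libraries Barx1 reached 1 CPM only in implants, so its value is a description, with no test, though it stays in the count. The lower count was 0 with all 16 libraries, 2 without MKF1, without MKF2 or with edgeR, 7 without any 1 of MWF1, ESM1 and ESM2, and 8 without EVM1 or without EVM2. The higher count was 1 under median-of-ratios scaling and 2 under TMM scaling. In MWM minus MWF, 2 were higher (1.45% of all genes), Nr2f6 by 0.59 and Twist1 by 0.85, and 1 lower (12.2%), Tbx6 at -1.69, and without MWM1 or without MWM2, 0 of the 57 passed. In EVM minus EVFY, 0 were higher (0.468% of all genes) and 2 lower (0.390%), among them Gata6 at -0.98 (limma adjusted p = 0.0216). There, 0 passed without any 1 of EVM1, MKF1 and MKF2. With all 16 libraries as labelled, 0 of the 57 passed in EVM minus EVFY, and in MWM minus MWF 1 was higher and 0 lower.

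The genome neighbours of the members were followed as well. Irx1 and Irx2 lie in a cluster on chromosome 13 with 665096 bases between them, and Irx3, Irx5 and Irx6 in a cluster on chromosome 8. Irx2 was at 3.48 to 8.13 CPM in the implants and at 0 to 0.329 CPM in 4 visceral libraries, but at 6.81 CPM in EVM1, and at 3.74 and 7.46 CPM in ESM1 and ESM2. Its log2 difference of implants minus visceral fat was 2.55 (SE 0.60, limma adjusted p = 0.0138), and its r with Irx1 was 0.92 over 14 libraries. EVM1 was thus the highest visceral library for both Irx1 and Irx2, and it alone held Sim1 reads. Irx4, also on chromosome 13, stayed at no more than 0.243 CPM in the 14 libraries, with r = 0.26 to Irx1. On chromosome 8 the neighbours went apart: Irx3 and Irx5, 555557 bases from each other, correlated at r = -0.38, and Irx6 stayed at no more than 0.391 CPM in the 14 libraries. Fto, 130085 bases from Irx3, was at 74.9 to 98.7 CPM in the 14 libraries, with r = 0.00 to Irx3.

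**Figure D5:**
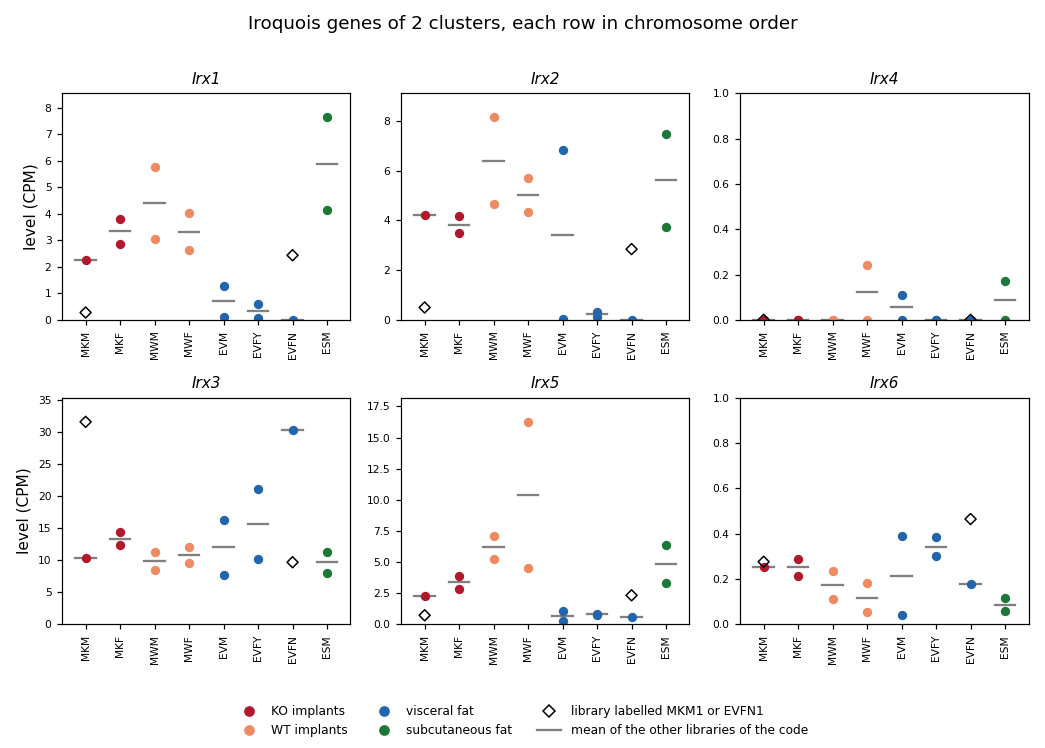
Level (y axis, CPM) of the Iroquois genes of the 2 clusters in every library, by group code (x axis), with the libraries labelled MKM1 and EVFN1 marked. Irx1 and Irx2 share a low in visceral fat apart from EVM1, where Irx2 is at 6.81 CPM, while Irx3 runs from 7.63 to 30.4 CPM in the visceral libraries other than EVFN1 and Irx5 stays at or below 1.06 CPM there.

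RNAs beside or across the members were also measured. Crnde, a noncoding RNA that starts 1504 bases from Irx5 on the other strand, correlated with it at r = 0.77. Its log2 difference of implants minus visceral fat was 1.17 (SE 0.22). Crnde reached 1 CPM only in implants, with at most 0.4525 CPM in visceral fat and 0.683 CPM in subcutaneous fat, so this value is a description, with no test. Gm43050, a noncoding RNA 747 bases from Tbx5, was at 0.113 to 0.628 CPM in the implants, 0 to 0.1096 CPM in visceral fat and 0.737 and 0.854 CPM in ESM1 and ESM2, with r = 0.79 to Tbx5, and was below the filter. The strand setting of the counting is not given in the sources used here, so reads of overlapping genes on opposite strands cannot be told apart. This touches Tbx15 with Gm43120 (6588 bases, r = 0.80), Nr2f1 with A830082K12Rik (1741 bases, r = 0.91), Irx3 with Irx3os (1653 bases, r = -0.15) and Shox2 with Rsrc1 (382 bases, r = 0.62). Wars2, 1194 bases from Tbx15 on the same strand, had r = -0.12 with it.

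The members also differed in the company they kept. Over the 14 libraries, on the log2(CPM + 0.5) scale, Shox2 and En1 had the highest r of any pair of members (0.96), and Tbx15 and Nr2f1 the lowest (-0.79). These libraries share tissue groups, so an r over them holds differences between groups as well as within them. The genes most like Tbx15 were Eya4 (r = 0.95), Cox8b (0.94) and Rilp (0.93), and those most like Irx5 were Cox8b (0.96), Cox7a1 (0.93) and Tigar (0.93). Eya4 encodes a transcriptional cofactor, and Cox8b and Cox7a1 encode subunits of cytochrome c oxidase found in muscle and in brown fat. For Tbx5 they were Zfhx4 (0.93), Mbp (0.91) and Gjc3 (0.91), for Shox2 En1 (0.96), Zfhx4 (0.95) and Tbx15 (0.93), and for En1 Shox2 (0.96), Shc4 (0.95) and Mag (0.95). Mbp, Gjc3 and Mag are genes of myelinating glia, and the sum of 6 Schwann cell markers was 99.05 to 259 CPM in the implants, 56.6 to 101 CPM in visceral fat and 608 and 757 CPM in ESM2 and ESM1. That sum correlated with Tbx5 at r = 0.92, with Shox2 at 0.81 and with En1 at 0.78, and its part in their levels was not tested. Mbp is 1 of these 6 markers and was named above for its r with Tbx5, so the sum is not separate from that r. For Irx1 the nearest were Irx2 (0.92), Eya4 (0.91) and Gnal (0.91), and for Tbx18 Zkscan5 (0.93), Rab13 (0.91) and Vangl1 (0.89). For Irx3 they were Acvr1b (0.89), Phf8 (0.88) and Irak2 (0.86), for Nr2f1 Htra4 (0.90), Pappa (0.90) and Cacna1c (0.89), and for Sim1 Mlf1 (0.90), Amd1 (0.88) and Uckl1os (0.88).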

How the data were processed

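RNA was sequenced from 16 mouse libraries, and a sample labelled ESF was not analysed here. Per the labels' protocols, ribosomal RNA was removed before random-primed cDNA synthesis. The submitters' processing notes name STAR 2.5.4, featureCounts (Subread 1.6.3), cutadapt 2.7 and FastQC 0.11.4 with build mm10, and the sources used here do not give their settings. The authors deposited 1 table of CPM values, each library summing to 1000000. All nonzero values (100%) were whole multiples of 1 read within 0.001 reads, so read counts were recovered from the deposited CPM.

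Differences were tested with limma 3.58.1 (R 4.3.3, trend and robust) on log2(CPM + 0.5), which understates changes of low genes. The fit used 14 libraries in 1 model with a mean for each of 8 groups (6 residual degrees of freedom). It covered 17964 genes that reached 1 CPM in 2 or more of 16 libraries. The Benjamini-Hochberg adjusted p had a threshold of 0.05. edgeR 4.0.16 on the recovered reads, other pseudocounts, scalings and filters, a replicate block and leaving out each library were alternatives. MKM and EVFN are 1 library each in this fit, and their spread is taken from the other groups.

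The members, gene lists and comparisons, and the choice to set the libraries labelled EVFN1 and MKM1 apart, were made with earlier results of these data known. The members are always named, with the 3 genes of highest Pearson r to each, up to 4 genes of the wider list per comparison and the annotated neighbours, and some genes of the wider list are not reported here. The labels do not state whether a group's libraries are from different animals, and the spread behind each p-value may therefore be technical. Positions are from GENCODE M21 on mm10. A count of 0 allows up to 3 reads, and such limits cover counting error only.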

Additional observations from a re-analysis of the deposited data

Results flagged for a closer look

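In 7 of 50 sets of libraries examined, the highest or lowest library stood apart by a test for single outliers with a nominal rate of 1 in 20 per set. The sets share libraries, the members were chosen from these levels, and EVFN1 had been set apart already. The count is therefore not compared with that rate. Among the 6 libraries with a visceral label, the library labelled EVFN1 stood above the other 5 for Tbx15 (16.8 CPM), Shox2 (9.80 CPM) and En1 (5.92 CPM). Sim1 was high in EVM1, at 0.893 CPM, both among those 6 libraries and among the 5 without EVFN1. Kidney, keratinocyte and glandular epithelium markers also had their highest visceral sums in EVM1. Among the 7 implants, En1 was highest in MKF2, at 7.60 CPM, and Irx5 in MWF1, at 16.3 CPM, where the skeletal muscle markers also had their highest sum.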

How the results depend on the processing

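With all 16 libraries as labelled, MKM1 and EVFN1 included, 0 of the 10 members kept every visceral library below every implant and subcutaneous library, against 6 without these libraries. The numbers of genes passing were then 309 in KO minus WT implants (main analysis 1935), 1021 in its female codes (2944), 1664 in MWM minus MWF (2458), 58 in visceral minus subcutaneous fat (215), 211 in implants minus visceral fat (5237), 124 in implants minus subcutaneous fat (2961) and 3 in EVM minus EVFY (154). EVM minus EVFY gave 280 under median-of-ratios scaling and 301 under TMM scaling, and MWM minus MWF 1594 with edgeR, against 2458; the cause was not tested.

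Leaving out 1 library at a time gave 831 (without MWM2) to 2357 in KO minus WT implants, 748 (without MKF2) to 3380 in the female codes and 524 (without MWM2) to 2466 in MWM minus MWF. It gave 55 (without ESM2) to 432 (without EVM2) in visceral minus subcutaneous fat, 3833 to 5427 in implants minus visceral fat, 969 (without ESM1) to 3422 in implants minus subcutaneous fat, and 33 (without EVFY2) to 487 (without EVM2) in EVM minus EVFY. Sim1 in implants minus subcutaneous fat was -0.39 with both ESM libraries, turned to 0.64 without ESM2 and was -1.42 without ESM1. Beside that reversal, the members' values under the alternatives were classed as unchanged in 1489 cases, changed in size in 47 and newly past the threshold in 3, all 3 without MWF2. Most changes in size came under another pseudocount or edgeR.

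In CPM the median of all genes lay off 0, at -0.20 in the female codes, -0.18 in MWM minus MWF, 0.14 in implants minus subcutaneous fat and 0.11 in implants minus visceral fat. In MWM minus MWF, 261 genes were higher and 2197 lower, against 851 and 1282 under median-of-ratios scaling. In the female codes these were 1077 and 1867, against 1678 and 1428.

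The deviations of same-numbered samples correlated at r from -0.44 to 0.34 over 15 pairs of groups. In 7 pairs r was over 0.1, among them all 6 pairs of MKF, MWM, EVM and ESM, and in the other 8 it was not, so the numbers were not taken to pair samples. A replicate block gave 1696 genes in KO minus WT implants, 2721, 2083, 200, 5002, 2800 and 113 in the other comparisons in the order female codes, MWM minus MWF, visceral minus subcutaneous, implants minus visceral, implants minus subcutaneous and EVM minus EVFY, and called 0 members. Levels near 1 read (0.039 to 0.061 CPM), as for Sim1 in its libraries at 0, are not resolved at this depth.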
